A study of Mus musculus with 6 samples.

Results

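The germline and meiosis genes described here are 39 listed mouse genes that serve germ cell identity, the piRNA pathway, the synaptonemal complex, meiotic cohesin and meiotic recombination. The list is one of names, with no threshold on a measured value, and all 39 were found among the 21900 protein-coding genes of the gene table used. Their DNA methylation was read from enhanced reduced representation bisulfite sequencing (ERRBS), in which restriction fragments rich in CpG dinucleotides are treated with bisulfite, so that unmethylated cytosine is read as T. Methylated and hydroxymethylated cytosine are read alike as C by this assay. A member's cytosines were those from 2 kb below its lower end to 2 kb above its upper end that had at least 10 reads in all 6 libraries. On this rule 1609 CpG cytosines, counted per strand, belonged to the 39 genes, out of 1457048 in the genome, and a member had between 3 (Sohlh1) and 115 (Mei1) of them.

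The groups were 3 libraries of splenic naive B cells from Tet2 knockout (KO) mice and 3 from Tet2 wild-type (WT) mice, both of strain C57BL/6. TET2 is an enzyme that oxidises 5-methylcytosine, a step towards removal of the mark, and the comparison asks what its loss does to DNA methylation in these cells. The sources used here do not give the animals' age or sex, how the knockout allele was made or in which cells it acts. They also do not say whether 1 mouse stands behind each library, so the p-values reflect variation among these 6 libraries, which may be in part technical. In 1 place, its design text, the series speaks of germinal centre B cells; its title and the 6 sample labels speak of naive B cells.

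Many germline genes have a promoter rich in CpGs that is methylated in the embryo, as cells of the body part from the germ line, and that stays methylated in body tissues, where the gene is silent. Most other promoters rich in CpGs are unmethylated in every tissue. In the embryo, repressor complexes containing MGA and MAX, which bind the E-box CACGTG, and E2F6, which binds TTCCCGC, are known to act at germline promoters, and DNMT3B is the enzyme known to methylate many of them.

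Each library held 1551481 to 1626375 cytosines and 168455105 to 207065050 reads over them, with a median of 92 to 110 reads per cytosine. At the members' cytosines the median was 87 to 104 reads. The genotype labels were checked at Tet2 itself, where 6 cytosines on chromosome 3 between 133486189 and 133486297 had 28 to 71 reads in the WT libraries and under 10 in every KO library. No member had a cytosine that was measured in all 3 libraries of one genotype and in none of the other. Cell type markers say little about the label, because few had measured starts: Pax5 and Ebf1, transcription factors of B cells, were at 0.364% and 0.0822% and Cd22, a B cell receptor inhibitor, at 34.3%, while the myeloid factor Cebpa and the erythroid factor Klf1 were also low, at 0.707% and 0.564%. Epor, the erythropoietin receptor, was at 64.4% on 7 cytosines. No T cell or NK cell marker had a measured start.

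Most of the germline genes were highly methylated at their start in naive B cells of both genotypes. A start window here is 1 kb on each side of the gene end from which the gene is read, with at least 3 measured cytosines, and its level is the percentage of pooled reads with C. Of the 27 members with such a window, 18 had a level of 70% or above as the mean of the 6 libraries, 5 lay between 10 and 70% and 4 were below 10%. Among all 10732 genes with a start window, 7.07% were at 70% or above and 86.1% below 10%. The median level was 90.3% over the members and 0.460% over all genes. The members' median was 90.1% in KO and 90.4% in WT.

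By role, 7 of 8 genes of germ cell identity had starts at 70% or above, as did 5 of 7 piRNA genes and 5 of 6 genes of the synaptonemal complex and chromosome axis. Neither of the cohesin genes with a start window reached 70%, and 1 of 4 recombination genes did. The median start level was 94.2% for germ cell identity, 87.7% for the piRNA pathway, 88.9% for the synaptonemal complex and axis, 40.0% for cohesin and 17.2% for recombination. Stag3 and Mei1 have a listed start far inside the gene end, and with windows around the listed starts the median was 21.3% for cohesin and 52.0% for recombination, where 2 of 4 genes were then at 70% or above; the other 3 medians were as before. Piwil1, Piwil4, Gtsf1, Syce1, Rec8 and Msh5 had no start window with enough cytosines, and for Tex15, Tdrd6, Piwil2, Rnf17, Spo11 and Meiob the strand is not in the promoter table used, so their ends are named lower or upper by coordinate. The level of a window can be an average of stretches that differ, as given below for Dazl and Tdrkh. Within a stretch of like level, a value between 0 and 100% in such bulk libraries has 3 possible sources. These are partial methylation in each cell, a mixture of cells or unequal alleles, which cannot be told apart.

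**Figure D1:**
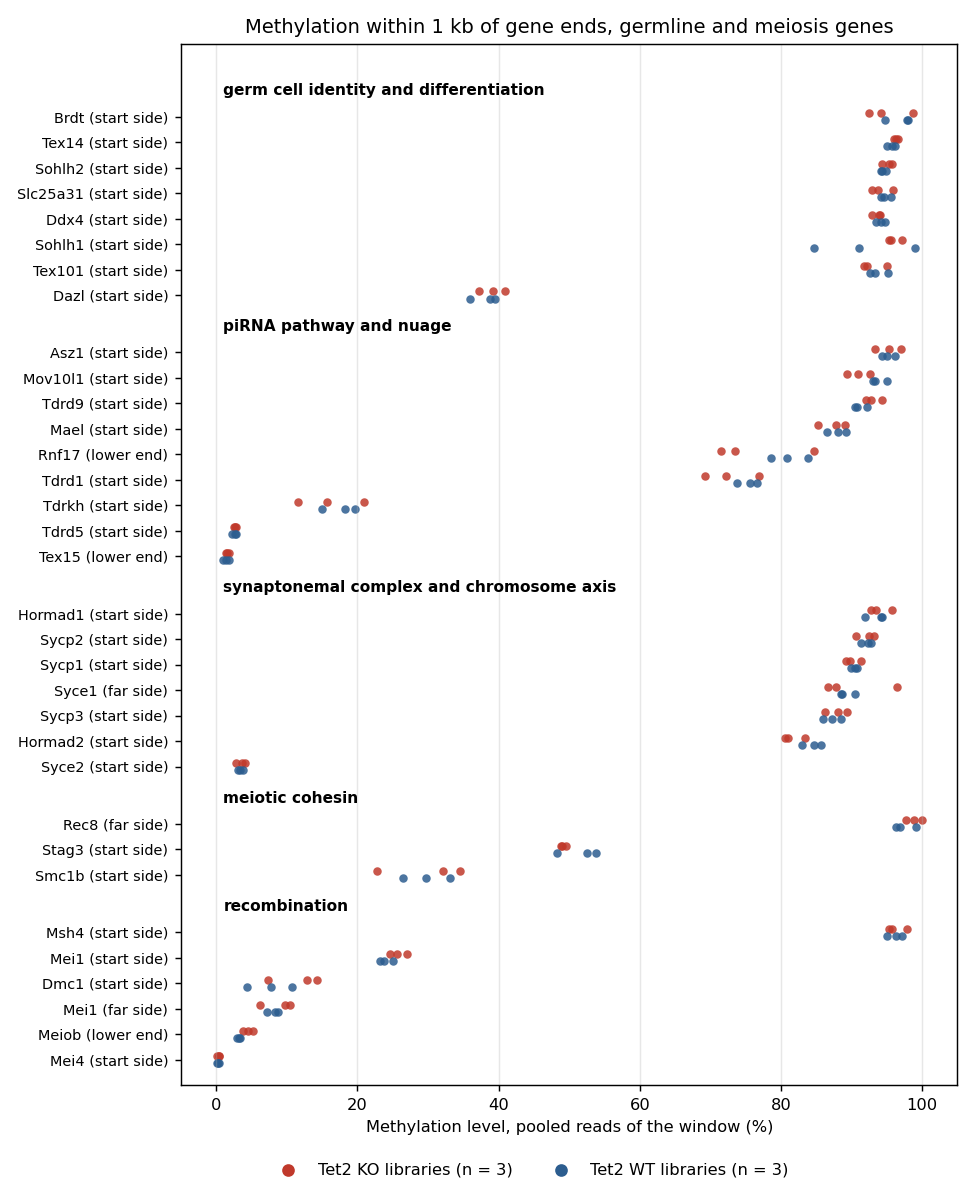
Methylation level in percent (x axis) of the 33 gene-end windows of the germline and meiosis genes that were measured, ordered by role and level. Each point is 1 library, red for Tet2 KO and blue for Tet2 WT (n = 3 each); most windows lie above 70% or below 10%, and red and blue points overlap in all windows but those of Meiob and Mov10l1.

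The promoter sequences show the opposite states that the germline genes carried at starts with many CpGs. The 250 bases before the start are given for the 3 members with the highest and the 3 with the lowest level there, and for the 1 member between 10 and 70%, among those with at least 5 measured cytosines. They are RefSeq sequences of build GRCm38.p6, written 5′ to 3′ along the gene, and capitals mark the CpGs that were measured in all 6 libraries. Asz1 lies at chr6:18109062-18109311 on the minus strand, Tex101 at chr7:24672051-24672300 on the minus strand and Slc25a31 at chr3:40708621-40708870 on the plus strand. Mei4 lies at chr9:81863420-81863669 on the plus strand, Tdrkh at chr3:94412994-94413243 on the plus strand and Tdrd5 at chr1:156303349-156303598 on the minus strand. Smc1b lies at chr15:85131958-85132207 on the minus strand.
Asz1: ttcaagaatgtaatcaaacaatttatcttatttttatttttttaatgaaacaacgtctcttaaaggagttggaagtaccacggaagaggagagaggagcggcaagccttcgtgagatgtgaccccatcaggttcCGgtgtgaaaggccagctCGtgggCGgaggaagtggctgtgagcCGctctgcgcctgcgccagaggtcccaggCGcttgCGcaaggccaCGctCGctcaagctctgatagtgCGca
Tex101: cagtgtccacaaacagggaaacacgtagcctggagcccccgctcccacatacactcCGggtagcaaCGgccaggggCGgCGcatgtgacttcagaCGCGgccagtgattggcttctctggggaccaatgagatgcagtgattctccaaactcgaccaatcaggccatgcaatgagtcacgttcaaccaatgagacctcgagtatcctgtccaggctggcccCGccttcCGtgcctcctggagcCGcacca
Slc25a31: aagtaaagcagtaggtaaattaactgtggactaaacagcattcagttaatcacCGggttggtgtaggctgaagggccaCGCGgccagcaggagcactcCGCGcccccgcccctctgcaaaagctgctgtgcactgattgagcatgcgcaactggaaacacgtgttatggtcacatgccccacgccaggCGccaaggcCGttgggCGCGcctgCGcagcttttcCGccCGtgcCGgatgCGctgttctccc
Mei4: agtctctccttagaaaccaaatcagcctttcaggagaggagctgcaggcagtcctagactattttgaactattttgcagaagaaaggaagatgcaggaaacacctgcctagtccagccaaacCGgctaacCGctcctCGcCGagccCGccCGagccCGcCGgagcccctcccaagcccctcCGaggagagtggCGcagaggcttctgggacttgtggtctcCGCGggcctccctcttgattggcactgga
Tdrkh: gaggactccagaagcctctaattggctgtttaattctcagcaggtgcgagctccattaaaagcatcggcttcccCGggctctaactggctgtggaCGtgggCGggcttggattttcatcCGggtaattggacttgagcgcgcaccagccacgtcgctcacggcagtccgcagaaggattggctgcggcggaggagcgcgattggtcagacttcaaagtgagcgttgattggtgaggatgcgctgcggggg
Tdrd5: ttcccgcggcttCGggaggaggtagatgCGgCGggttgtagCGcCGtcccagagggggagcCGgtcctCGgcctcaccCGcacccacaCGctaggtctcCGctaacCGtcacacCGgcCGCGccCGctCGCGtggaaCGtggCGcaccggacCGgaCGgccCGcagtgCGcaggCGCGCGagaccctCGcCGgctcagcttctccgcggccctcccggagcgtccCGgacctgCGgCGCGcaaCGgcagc
Smc1b: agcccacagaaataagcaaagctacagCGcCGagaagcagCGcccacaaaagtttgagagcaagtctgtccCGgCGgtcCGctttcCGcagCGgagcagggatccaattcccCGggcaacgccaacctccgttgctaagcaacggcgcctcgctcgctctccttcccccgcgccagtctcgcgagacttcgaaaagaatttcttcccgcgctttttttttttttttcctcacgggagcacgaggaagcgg
In the Asz1 stretch, 9 of 15 CpGs were measured, at 95.3, 94.9 and 98.0% in KO libraries 1, 2 and 3 and 98.0, 95.6 and 96.0% in WT libraries 1, 2 and 3. The Tex101 stretch, with 9 of 14 CpGs measured, had 92.9, 95.5 and 97.2% in KO and 90.3, 94.9 and 96.0% in WT. The Slc25a31 stretch, with 14 of 18 CpGs measured, had 95.9, 91.1 and 94.6% in KO and 94.9, 94.2 and 96.2% in WT. These 3 promoters were thus almost fully methylated in each of the 6 libraries, and the genotypes overlapped in each. In the Mei4 stretch, all 12 CpGs were measured, at 0.725, 0.577 and 0% in KO and 0.639, 0.170 and 0.1501% in WT. The Tdrkh stretch, with 4 of 19 CpGs measured, had 0.583, 1.89 and 0% in KO and 0.879, 0.121 and 0.177% in WT. The Tdrd5 stretch, with 33 of 40 CpGs measured, had 0.505, 0.862 and 0.286% in KO and 0.613, 0.808 and 0.889% in WT. With 3 reads as the limit that a count of 0 allows, the 0% of KO library 3 bounds the level at 0.145% in Mei4 (2063 reads) and 0.546% in Tdrkh (549 reads), counting error alone. The measured CpGs of these 3 stretches were all but unmethylated in the 6 libraries, and the genotypes overlapped. In Tdrkh they lay 131 to 176 bases before the start, and none closer to it was measured. The Smc1b stretch stood between them, at 12.7, 10 and 13.2% in KO and 17.6, 11.1 and 11.4% in WT over 9 of its 25 CpGs.

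Most of the methylated members had promoters rich in CpGs. Over the 300 bp promoter (250 bases before the start and 50 after), CpG-dense is used for a ratio of observed to expected CpGs of at least 0.6 with a GC content of at least 50%. Of the 33 members with a promoter sequence, 21 (63.6%) were CpG-dense, against 45.8% of all 17492 promoters. Among CpG-dense promoters with at least 5 measured cytosines, 8 of 12 members (66.7%) were at 70% or above, against 36 of 6236 (0.577%) over all genes. The highest ratio among the methylated members was that of Ddx4, 0.978, with 93.1% methylation over 43 cytosines, while the unmethylated Tdrd5 had 1.11 with 0.708% over 53 cytosines. Mei4 had a ratio of 0.580, close to the 0.545 of the methylated Sohlh2, and a level of 0.356% over 26 cytosines against 92.7% over 13. Among all promoters with at least 5 measured cytosines, the median ratio was 0.510 for those at 70% or above and 0.836 for those below 10%; among the members it was 0.782 and 0.830.

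**Figure D2:**
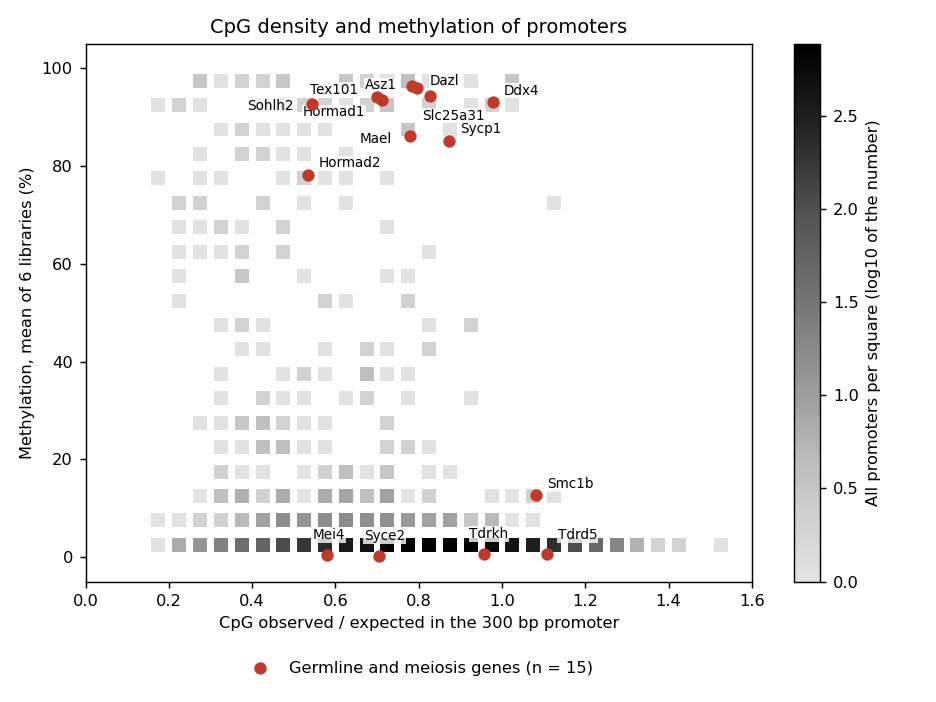
Ratio of observed to expected CpGs in the 300 bp promoter (x axis) against methylation in percent, mean of the 6 libraries (y axis), for promoters with at least 5 measured cytosines. Grey squares count all promoters on a log10 scale and red points are the 15 germline and meiosis genes, of which 10 lie above 70% and 8 of these 10 are CpG-dense.

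A set of 3 motifs was searched on both strands of the 300 bp promoters. The E-box CACGTG was found in 13 of 33 members (39.4%) and in 7.91% of all promoters, and TTCCCGC in 9 of 33 (27.3%) and in 6.01% of all. The GC box GGGCGG, a common promoter element bound by SP1, was found in 19 of 33 (57.6%) and in 46.3% of all. With at least 5 measured cytosines, CACGTG was in 5 of the 10 methylated members (Ddx4, Sycp1, Hormad1, Slc25a31 and Mael) and in none of the 4 unmethylated ones, while over all genes it was in 16.5% of methylated and 11.2% of unmethylated promoters. TTCCCGC was in 3 of the 10 and 1 of the 4, against 11.3% of methylated and 10.4% of unmethylated promoters over all genes. Among all promoters with at least 5 measured cytosines, CACGTG was in 11.3% and TTCCCGC in 10.3%, and each was in 33.3% of the 15 such members. None of these shares was matched for CpG density. The CpG inside CACGTG was itself measured in Ddx4 at 27 bases before the start, with 89.8%, in Sycp1 at 92 bases before, with 92.7%, and in Hormad1 at 55 and 18 bases before, with 79.8% and 86.2% as means of the 6 libraries. The CpG inside TTCCCGC or its reverse complement GCGGGAA was measured in Ddx4 (90.9%), Hormad1 (95.6%) and Slc25a31 (92.1%). These motifs are matches of letters, and binding of any factor was not measured here.

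Among the genes of germ cell identity, Brdt had the highest start level and Dazl the lowest. Brdt encodes a testis bromodomain protein that reads acetylated histones, and its start window had 92.5, 98.7 and 94.2% in KO libraries 1, 2 and 3 and 97.8, 94.8 and 98.0% in WT libraries 1, 2 and 3. The 7 measured cytosines of that window lay 400 to 900 bp inside the gene from its listed start. Tex14 (96.0%, mean of the 6 libraries) is needed for the bridges between germ cells, and an end of the gene Rad51c lies 59 bp from its start. Sohlh1 (93.8%, on 3 cytosines) and Sohlh2 (94.8%, on 48) are transcription factors of early germ cell differentiation. Slc25a31 (94.5%), the ADP/ATP carrier of testis mitochondria, Ddx4 (93.9%), the germ cell RNA helicase, and Tex101 (93.3%), a surface glycoprotein of germ cells, lay within the same few percent. Not all of the DNA of these genes was methylated: 2 tiles inside Tex14 had 0.0414% (9 cytosines) and 0.0616% (16 cytosines), and 1 inside Brdt had 0.582% (4 cytosines), against 96% in their start windows. The tiles are fixed 1 kb steps along the chromosome.

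Dazl, an RNA-binding regulator of translation in germ cells, was methylated at its start and unmethylated inside the gene. Its start window of 101 cytosines had 40.9, 39.2 and 37.2% in KO and 38.8, 39.4 and 35.9% in WT, and this intermediate level was the average of 2 blocks. The 300 bp promoter had 96.0% over 8 cytosines. From the start to 300 bp inside the gene the level was 96.3, 94.8 and 97.2% in steps of 100 bp. It was 79.9 and 82.1% in the next steps, 18.0% between 500 and 600 bp, and 1.37, 0.596 and 0.663% from 600 to 900 bp. The step between 500 and 600 bp had 13.6 to 21.2% in the 6 libraries, so that the change of state lay in the same steps in each of them.

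**Figure D3:**
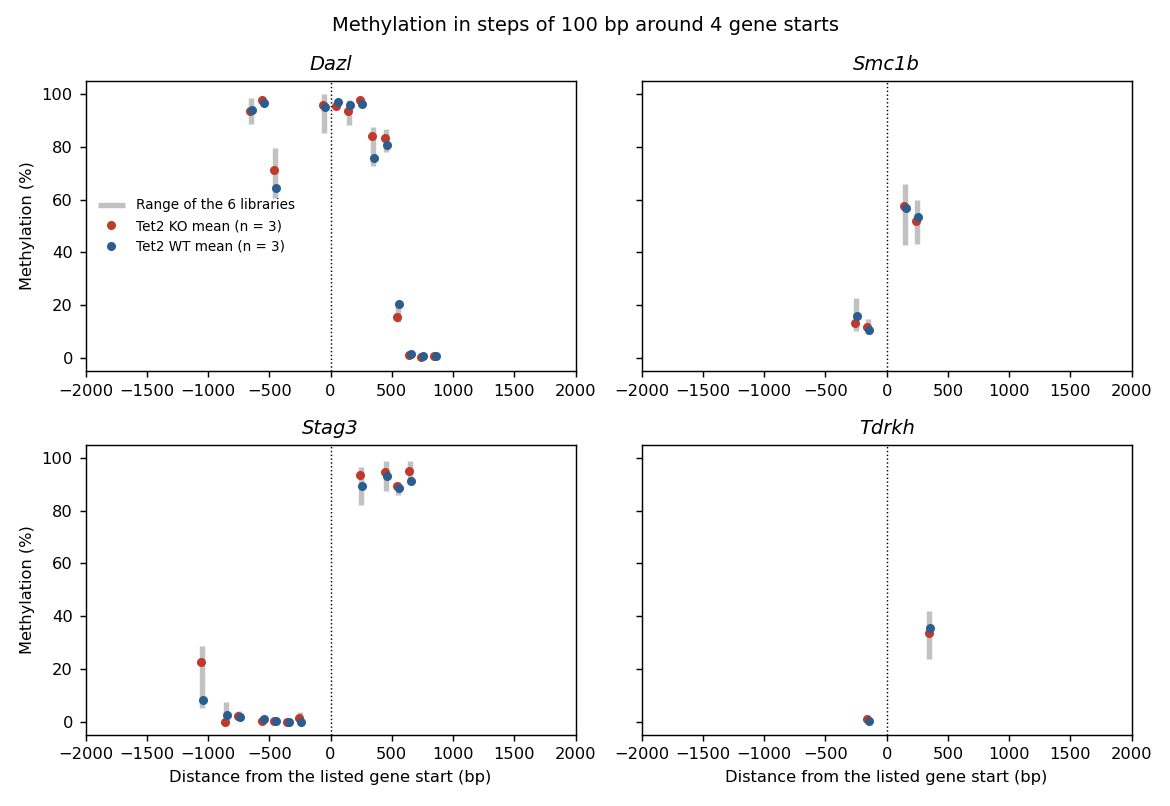
Methylation in percent (y axis) in steps of 100 bp by distance from the listed gene start (x axis, negative before the start) for Dazl, Smc1b, Stag3 and Tdrkh, with KO means in red, WT means in blue (n = 3 each) and the range of the 6 libraries as grey bars. Dazl passes from above 90% at its start to about 1% beyond 600 bp, and Stag3 from near 0% before its listed start to about 90% after it, in both genotypes.

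Among the piRNA genes, whose proteins make the small RNAs that guide silencing of transposons in germ cells, Asz1 had the highest start level and Tdrd5 the lowest. Asz1, a protein of the nuage where piRNAs are made, had 93.3, 95.3 and 96.9% in KO and 95.1, 94.3 and 96.1% in WT. Mov10l1 (92.4%), an RNA helicase of piRNA processing whose start lies 198 bp from an end of Mlc1, Tdrd9 (92.1%), a helicase with a Tudor domain, and Mael (87.7%), a nuage protein, were also methylated. The 6 measured cytosines of the Mov10l1 window lay 400 to 700 bp inside the gene from its listed start. Tdrd1, a Tudor protein that binds PIWI proteins, was lower than these genes, at 69.3, 76.9 and 72.1% in KO and 73.7, 75.6 and 76.7% in WT. Tdrd5, another Tudor protein of the nuage, had 2.86, 2.49 and 2.71% in KO and 2.26, 2.82 and 2.72% in WT over 75 cytosines. The listed start of Tdrd5 lies 956 bp inside the gene end, and the window there was at 4.40%. After that listed start the level was 5.18% between 100 and 200 bp and 14.6% between 200 and 300 bp. On 1 cytosine between 300 and 400 bp it was 7.31%. Before the listed start, still inside the gene end, 1 cytosine between 800 and 900 bp was at 50.9% and 1 between 700 and 800 bp at 52.4%.

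Tdrkh, which tethers PIWI proteins at mitochondria for piRNA trimming, had 15.7, 11.5 and 20.9% in KO and 19.7, 15 and 18.2% in WT in its start window of 10 cytosines. That average joined 6 cytosines before the start at 0.608% and 4 between 300 and 400 bp inside the gene at 34.5%. The lncRNA gene 1700040D17Rik has an end 288 bp from the start of Tdrkh. At the lower end of Tex15, which links PIWI proteins to transposon silencing, the 60 cytosines were at 1.43, 1.74 and 1.47% in KO and 0.926, 1.81 and 1.37% in WT. Tdrd6, a Tudor protein of late male germ cells, had no gene-end window, and its tiles from 43629001 and 43630001 on chromosome 17 were at 26.2% (51 cytosines) and 12.2% (37 cytosines). Rnf17, a RING and Tudor protein of spermatids, had 73.5, 84.7 and 71.5% in KO and 80.8, 83.8 and 78.6% in WT at its lower end. The PIWI genes were measured inside or near the gene but not at the start: Piwil1 had 94.6%, Piwil2 94.1% and Piwil4 94.5 and 95.5% in their tiles, and Gtsf1, which assists PIWI proteins, had 93.8 and 68.2%.

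In the synaptonemal complex and chromosome axis, Hormad1 had the highest start level and Syce2 the lowest. Hormad1, an axis protein that promotes DNA breaks and pairing, had 92.7, 95.7 and 93.4% in KO and 94.2, 91.9 and 94.3% in WT. Sycp1, the filament that joins the axes, was at 90.3%, and Sycp2 and Sycp3, components of the axes, were at 92.2% and 87.5%. Hormad2, the other axis protein of this family, had 83.4, 80.6 and 81.0% in KO and 84.6, 82.9 and 85.7% in WT, and 1 cytosine between 100 and 200 bp before its start was at 21.2%. Syce2, a protein of the central element, had 4.13, 2.86 and 3.68% in KO and 3.74, 3.02 and 3.30% in WT over 70 cytosines. Its level was under 1% from 100 bp before the start to 600 bp after it, and 41.5% between 800 and 900 bp. Syce1, of the same central element, was measured at its far end (89.8%) and inside the gene, where its tiles had 89.1 to 93.6%.

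The meiotic cohesin genes with start windows, Stag3 and Smc1b, were both intermediate. Stag3, the meiotic STAG subunit, had 48.8, 48.9 and 49.5% in KO and 53.8, 52.6 and 48.2% in WT at the end of its gene span, where the end of Gal3st4 lies 543 bp away. Its listed start lies 7995 bp further inside, and the window there was at 12.8%. Before that listed start, 5 cytosines between 500 and 600 bp were at 0.491% and 13 between 400 and 500 bp at 0.181%. After it, the steps from 200 to 700 bp that were measured had 89.0 to 93.8%. Smc1b, the meiotic SMC1 subunit, had 34.5, 32.1 and 22.8% in KO and 33.0, 26.4 and 29.7% in WT. Its cytosines before the start were at 14.5 and 11.3% in steps of 100 bp and those inside the gene at 57.3 and 52.7%, and the neighbouring gene Ribc2 has an end 103 bp from its start. Rec8, the meiotic kleisin, had 7 measured cytosines, and the 3 in the window of its far end were at 98.2%.

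**Figure D4:**
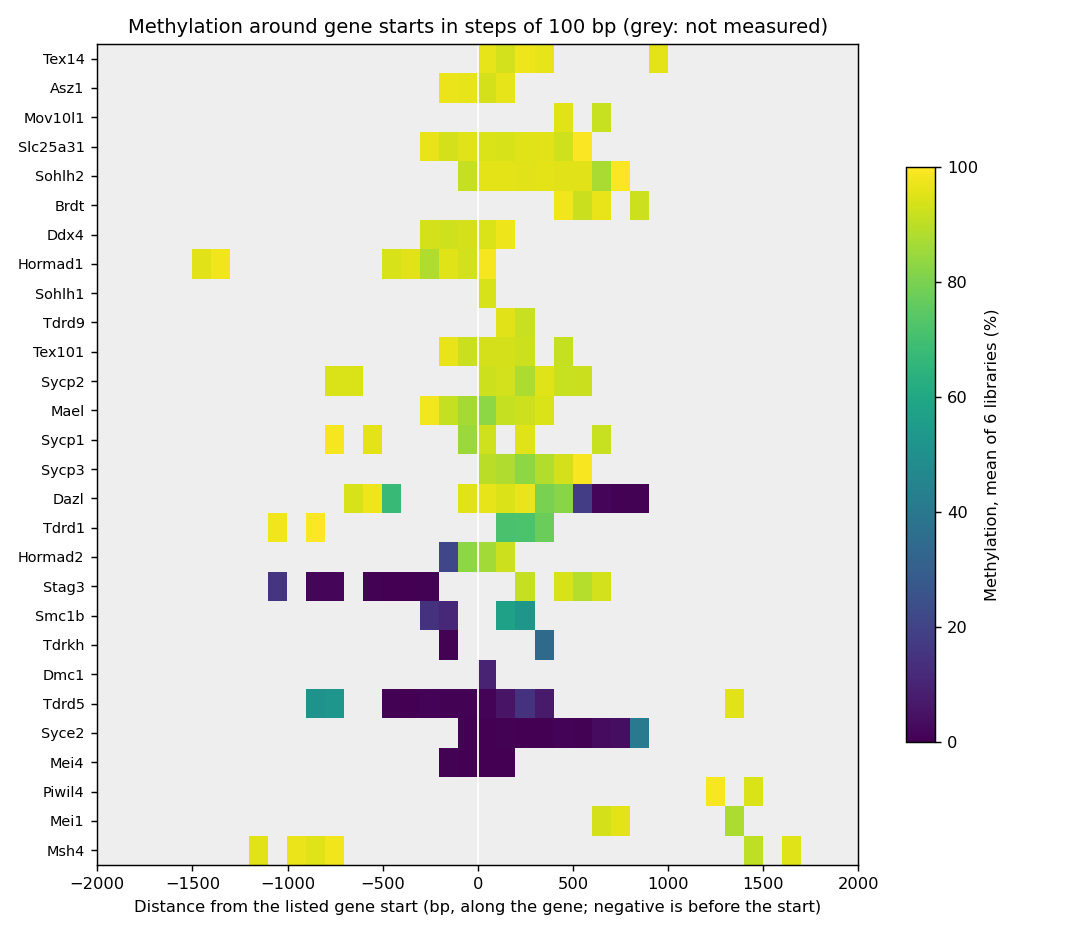
Methylation as the mean of the 6 libraries (colour, 0 to 100%) in steps of 100 bp from 2000 bp before to 2000 bp after the listed start of each germline and meiosis gene with measured cytosines there; grey steps were not measured. Most genes are methylated on every measured step, Dazl and Stag3 change from one state to the other within the region, and Tdrd5, Syce2 and Mei4 are low around the start.

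Of the recombination genes, Msh4 was methylated and Mei4 unmethylated. Msh4, which stabilises crossover intermediates, had 95.8, 97.9 and 95.2% in KO and 95.05, 96.3 and 97.1% in WT. Its 15 cytosines lay 700 to 1200 bp before its listed start, which is 1247 bp inside the gene end. Mei4, needed for meiotic DNA breaks, had 0.431, 0.411 and 0.0600% in KO and 0.357, 0.142 and 0.243% in WT over 37 cytosines, while 4 tiles further inside the gene were at 88.2 to 97.9%. Dmc1, the meiotic recombinase, had 12.8, 7.36 and 14.3% in KO and 7.81, 10.7 and 4.38% in WT, on 10 cytosines with a mean of 16.3 to 47.9 reads each per library. Mei1, another gene needed for meiotic DNA breaks, had 27.1, 25.6 and 24.6% in KO and 25.1, 23.2 and 23.8% in WT at the end of its gene span, whereas the window at its listed start, 12402 bp inside, had 94.4% on 5 cytosines. At the far end of Mei1 the level was 8.44%, where the gene Ccdc134 has an end 1081 bp away. The 28 cytosines at the lower end of Meiob, a single-strand DNA-binding protein, were at 3.84% as a mean. Spo11, the enzyme that makes the breaks, had 95.7 and 96.1% in its tiles, and Msh5, the partner of Msh4, had 74.2 and 94.7%.

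No gene-end window of the germline genes passed the test of KO against WT. The test was a quasi-binomial F test on the read counts with Benjamini-Hochberg adjustment over all features of the genome, and a call needed an adjusted p under 0.05 and at least 10 percentage points. None of the 33 member windows was called in either direction, where 0.00569% of all 17584 windows were called higher in KO and 0% lower. At an unadjusted p under 0.05 there was 1 window higher and 0 lower among the members, against 4.95% and 0.876% of all windows. With limma in place of this test, 0 members' windows had an unadjusted p under 0.05, against 4.46% higher and 1.245% lower of all windows. The genotypes did not overlap in 1 member window with KO higher (Meiob) and in 1 with KO lower (Mov10l1), against 8.12% and 2.56% of all windows. Of the 33 windows, 20 had a pooled difference above 0 (60.6%), against 63.8% of all. The differences ran from -5.04 to 4.78 points, 25 of them under 2 points in size, and their median was 0.202 points, against 0.0597 points over all windows. The members' median was 0.0294 points without KO library 1, -0.0437 points without KO library 2 and 0.0255 points without WT library 2. By level, it was -0.0249 points in the 21 member windows at 70% or above (0.510 over all windows of that level), 0.425 points in the 5 between 10 and 70% (0.939 over all) and 0.202 points in the 7 below 10% (0.0443 over all). The 95% confidence interval of the difference lay within 5 points of 0 in 21 windows and within 10 points in 30.

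The 6 member windows with the smallest p-values were those of Meiob, Rnf17, Hormad2, Dmc1, Tdrd1 and Mov10l1. Their intervals are not adjusted for this choice, so an interval without 0 is not a call. At the lower end of Meiob, the libraries were at 5.17, 3.82 and 4.52% in KO and 3.21, 2.90 and 3.40% in WT, so the KO libraries were higher without overlap. The difference was 1.39 points (95% confidence interval 0.142 to 2.64, adjusted p = 0.836 by the quasi-binomial test), and 0.652 points with each cytosine weighted equally. At Mov10l1, with 90.9, 89.3 and 92.7% in KO and 95.05, 93.4 and 93.0% in WT, all KO libraries lay below all WT libraries. That difference was -3.32 points (95% confidence interval -8.44 to 1.79, adjusted p = 0.886 by the quasi-binomial test), and -2.18 points without KO library 2. In the other 4 windows, whose values are given above, the genotypes overlapped. Rnf17 differed by -5.04 points (95% confidence interval -10.5 to 0.471), and its KO libraries were spread from 71.5 to 84.7%; without KO library 2 the difference was -8.88 points, without KO library 3 it was -2.26 points and without WT library 2 -3.33 points. Hormad2 differed by -2.58 points (-5.45 to 0.284), or -1.68 points without WT library 3. Dmc1 differed by 4.78 points (-1.80 to 11.4), or 2.45 points without WT library 3. Tdrd1 differed by -2.76 points (-6.64 to 1.11), or -0.863 points without KO library 1 and -4.55 points without KO library 2. The adjusted p of these 4 was between 0.850 and 0.877 by the quasi-binomial test.

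None of the 1 kb tiles inside and around the germline genes passed the test either. The members had 112 measured tiles, of which 85 were at 70% or above, 13 between 10 and 70% and 14 below 10%. Of all 108943 tiles, counting those without spread, 69197 were at 70% or above, 13491 between 10 and 70% and 26255 below 10%. High levels were thus common among all tiles, unlike among all starts. None of the members' tiles was called, where 0.112% of all 108802 tested tiles were called higher in KO and 0% lower. At an unadjusted p under 0.05 there were 3 tiles higher and 0 lower among the members, against 5.74% and 1.46% of all tiles. With limma 4 members' tiles were higher and 2 lower, against 5.07% and 1.51% of all. The genotypes did not overlap in 6 tiles with KO higher and 3 with KO lower, against 8.35% and 3.36% of all. The pooled difference was above 0 in 72 of them (64.3%), against 59.8% of all tiles. The median difference was 0.333 points over the members' tiles and 0.174 points over all tiles. By level, it was 0.429 points in the 85 member tiles at 70% or above (0.406 over all tiles of that level), 0.481 points in the 13 between 10 and 70% (1.30 over all) and 0.130 points in the 14 below 10% (0.0486 over all).

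Of the 6 member tiles with the smallest p-values, 2 cover the same cytosines as the windows of Meiob and Rnf17. The intervals of the tiles, too, are not adjusted for this choice. Inside Mei4, the tile from 81901001 on chromosome 9 had 99.7, 99.7 and 99.1% in KO and 98.0, 93.8 and 96.9% in WT. The KO libraries did not overlap with the WT libraries there and were higher by 3.58 points (95% confidence interval 0.522 to 6.63, adjusted p = 0.561 by the quasi-binomial test), or by 2.02 points without WT library 2. The tile of Syce1 from 140784001 on chromosome 7 had 97.2, 93.5 and 96.3% in KO and 91.0, 90.7 and 92.9% in WT, again without overlap, and differed by 3.85 points (0.0182 to 7.68). The tile of Tdrd9 from 112038001 on chromosome 12 had 92.8, 97.2 and 94.7% in KO and 98.0, 98.8 and 97.4% in WT. All KO libraries lay below all WT libraries there. KO minus WT was -2.92 points (-5.91 to 0.0790), or -1.78 points without KO library 1 and -4.45 points without KO library 2. The largest difference in size among the members' 112 tiles was in Mei1, from 82124001 on chromosome 15, where 3 cytosines had 12.8, 34.1 and 29.4% in KO and 12.8, 18.3 and 20.1% in WT. KO libraries 2 and 3 were high there and KO library 1 was as low as the lowest WT library, so the groups overlapped, and the difference of 8.87 points had an interval of -0.250 to 18.0 points. It was 14.7 points without KO library 1 and 4.54 points without KO library 2.

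**Figure D5:**
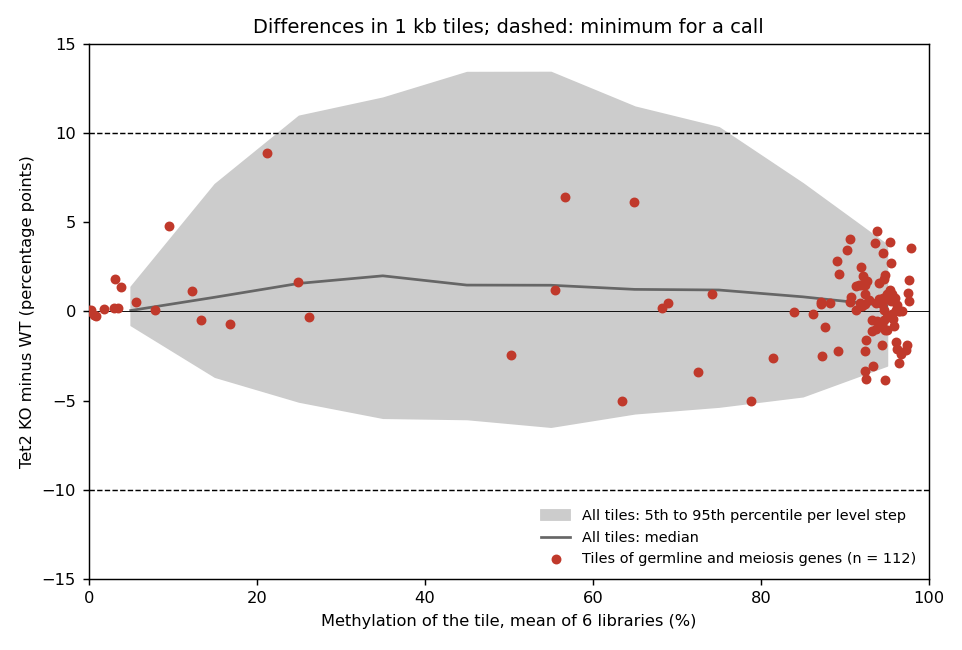
Difference of pooled methylation, KO minus WT in percentage points (y axis), against the mean level of the 6 libraries in percent (x axis) for the 112 tiles of the germline and meiosis genes (red points). The grey band holds the 5th to 95th percentile and the line the median of all tiles at each level; no red point reaches the dashed minimum of 10 points for a call, and the largest is 8.87 points.

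At single cytosines, 0 of the 1427 members' cytosines with spread between libraries were called, where 0.000731% of 1095119 cytosines were called higher in KO and 0% lower. At an unadjusted p under 0.05, 63 were higher and 55 lower, against 5.31% and 3.17% of all. With limma 66 were higher and 44 lower, against 5.62% and 2.12% of all. The genotypes did not overlap at 55 cytosines with KO higher and 48 with KO lower, against 3.95% and 2.99% of all, and 719 of the 1427 had a difference above 0 (50.4%), against 52.1% of all. The cytosine with the smallest p was at 56402876 on chromosome 14, in the lower-end window of Rnf17. It had 56.2, 75.9 and 54.0% in KO and 92.2, 93.5 and 92.6% in WT, a difference of -34.4 points with an adjusted p of 0.466 by the quasi-binomial test. All 3 KO libraries were lower there, while the whole window overlapped. The next smallest p was at 55182385 on chromosome 3, in Sohlh2, where KO was higher by 5.50 points. The libraries there were at 100, 99.1 and 100% in KO and 92.0, 95.6 and 94.2% in WT (adjusted p = 0.547 by the quasi-binomial test). In Tdrd1, the cytosine at 56826440 on chromosome 19 had 34.2, 47.2 and 50% in KO and 62.5, 67.7 and 67.2% in WT, with an adjusted p of 0.551 by the same quasi-binomial test. These cytosines were picked as those with small p-values among 1427, so their size is a description.

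Averaged over all their 1609 cytosines, the germline genes were at 57.7% ± 0.235 (SD, n = 3) in KO and 57.7% ± 0.0731 (SD, n = 3) in WT. The libraries were at 57.8, 57.9 and 57.4% in KO and 57.7, 57.6 and 57.7% in WT, so that the genotypes overlapped. Over all 1457048 cytosines of the genome the means were 33.7% ± 0.112 in KO and 33.4% ± 0.112 in WT. The difference was 0.00535 points for the members and 0.344 points for the genome. Of the members' cytosines, 46.2% were at 90% or above and 31.9% below 10%, against 26.2% and 60.6% over the genome. In the class at 30 to 70% by the mean of the 6 libraries, where the genome differed by 2.72 points, the 83 members' cytosines were at 51.0% ± 2.35 in KO and 51.3% ± 1.62 in WT, and KO minus WT was -0.323 points. At 70 to 90% the 184 members' cytosines were at 83.6% ± 1.80 and 84.8% ± 0.407, a difference of -1.20 points, where the genome differed by 1.29 points. In the other classes the members and the genome differed by 0.0278 and 0.0653 points below 10% (513 members' cytosines), 0.791 and 1.43 points at 10 to 30% (86) and 0.235 and 0.297 points at 90% or above (743). Whether the members differ from the genome in these classes was not tested.

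A further list of 50 germline genes, of which 49 were matched, had 27 start windows, and 11 of these were at 70% or above, 4 between 10 and 70% and 12 below 10%. Its median was 52.6%. Of its 14 start windows with a CpG-dense promoter, 3 (21.4%) were at 70% or above and 9 below 10%, with a median of 4.47%. On the same measure, 12 of 18 members (66.7%) and 1.45% of all genes were at 70% or above. Hsf2bp, a partner of BRCA2 in meiosis, was at 96.8%, and Tex19.1, which restrains transposons, at 95.2%, while Mnd1 and Trip13, which serve meiotic recombination and the removal of HORMAD proteins, were at 0.143% and 0.155%. Of its 39 gene-end windows, 0 were called, and at an unadjusted p under 0.05 there were 3 higher and 1 lower in KO, against 4.95% and 0.876% of all windows. The smallest p of each direction were those of Terb1, a telomere attachment protein, at 5.20% ± 0.810 in KO and 3.69% ± 0.370 in WT, and of Meioc, a meiosis regulator, at 68.3% ± 2.76 and 71.7% ± 1.17 (SD, n = 3 each). Their adjusted p-values were 0.641 and 0.831 by the quasi-binomial test. The repressors and methylation enzymes known to act on germline promoters had 12 measured starts, all of them below 3%: E2f6 had 2.75%, Mga 0.695%, Max 0.222% and Dnmt3b 0.105%. Low starts were not particular to this list, since 86.1% of the starts of all genes were below 10%, with a median of 0.460%. In this list 0 of 16 windows were called, and 2 had an unadjusted p under 0.05, both higher in KO, against 4.95% of all windows.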

How the data were processed

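ERRBS libraries of splenic naive B cells, 3 Tet2 KO and 3 WT, were analysed. Reads were processed by the authors with Bismark on GRCm38, per the submitters' processing notes; its version, read trimming and the treatment of duplicates are not given there. The 6 tables, 1 for each library, follow the methylKit format and list CpG cytosines by strand. Per the file headers, the deposited values are coverage, a raw read count, and the percent of reads with C and with T; no deposited count was below 10. The reads with C and with T were computed from these columns, which gave whole numbers for 100% of values. Reads carry no molecular identifiers, so read numbers bound counting error only; errors here come from the spread between libraries.

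Gene spans and promoter sequences came from RefSeq tables of GRCm38.p6, and the letters of all 310 measured positions that fell in members' promoters held a cytosine on the given strand. Exons, introns and UTRs were not used here. A gene with 2 or more listed starts was given the start nearest to its gene end. Features were windows of 1 kb on each side of gene ends, 1 kb tiles (at least 3 cytosines each) and single cytosines, on positions with 10 or more reads in each of the 6 libraries. KO and WT were compared with a quasi-binomial F test whose overdispersion (4 residual degrees of freedom, at least 1) was moderated with limma 3.58.1 in R 4.3.3, with Benjamini-Hochberg adjustment over all features; features without any spread between libraries were left out. The code was tested on simulated data. Differences are KO minus WT of pooled reads, and errors are SDs over 3 libraries. The members and gene lists were chosen with earlier results of these data known. Values in every library were given for the highest and lowest start of each role, every start between 10 and 70%, and the 6 windows and 6 tiles with the smallest p; the genes named from the further lists and the single cytosines were chosen after their values were seen. The alternatives tried were 20 reads as the minimum, an upper coverage limit, equal weights per cytosine, no moderation, limma, the replicate number as a block, windows of 500 bp, at least 5 cytosines, each library left out, and, chosen after seeing the data, windows at listed starts and features without spread kept.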

Additional observations from a re-analysis of the deposited data

How the results depend on the processing

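The count of members called was 0 for windows, tiles and single cytosines under every alternative run, leaving out each library included. The median start level, 90.3%, moved beyond its spread of 0.744 points to 91.1% with each cytosine weighted equally and to 92.1% with windows around the listed start, and ran from 90.1 to 90.5% when each library was left out. With windows around the listed start, 19 of 27 members were at 70% or above. The median window difference, 0.202 points, ran from -0.0437 (without KO library 2) to 0.198 points when each library was left out, so its sign rests on that library, and it was 0.0480 to 0.331 points in the other alternatives. For the 12 windows and tiles with the smallest p, all 169 recomputed values kept their direction, with adjusted p between 0.134 and 0.987. Part of this was fixed in advance. No moderation, the replicate block, at least 5 cytosines and features without spread kept all leave the pooled difference unchanged. The tiles of Meiob and Rnf17 also repeat the cytosines of their windows. The labels give both genotypes replicate numbers 1 to 3, but same-numbered libraries did not deviate together (correlations 0.0480, -0.0293 and -0.00736 over 29505 tiles); with the replicate block 0 members were called, and over the genome 0 tiles in place of 122. No moderation, limma or keeping features without spread also gave 0 called tiles over the genome, so that a count of 0 among the members under these settings stands beside 0 elsewhere. Cytosines outside the restriction fragments were not measured, and the 95% intervals of 12 members' windows reached beyond 5 points.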
